A study of Mus musculus with 3 samples.

Results

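CC chemokine genes encode small secreted proteins that draw leukocytes towards the cells that release them. The 8 genes described here, Ccl2, Ccl3, Ccl4, Ccl5, Ccl6, Ccl7, Ccl9 and Ccl12, were chosen by symbol, and each matched 1 row among the 55536 gene rows of the deposited gene tables. The mouse annotation used for these tables, GENCODE M21, lists 24 CC chemokine genes, so 16 others remained for comparison. The label was borne out by the annotation, in which all 8 are protein-coding genes on chromosome 11.

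RNA was sequenced from bone-marrow-derived macrophages of the C57BL/6J mouse strain, which are cells grown from marrow precursors in culture. Every library carried the same treatment, 100 ng/ml Lipid A for 20 min, and came from the cytosolic fraction after depletion of ribosomal RNA. Lipid A anchors lipopolysaccharide in the bacterial membrane and is the ligand of the innate receptor Tlr4. The labels give 3 biological replicates of this 1 condition with 1 shared donor identifier, so every SD below measures the spread between these samples, which may be partly technical. Sex and age were not collected, and unstimulated cells or other fractions were not analysed here. No statement on induction by Lipid A can therefore be made, and with 1 group no test between groups exists. In bulk RNA, fewer expressing cells and less RNA per cell cannot be told apart.

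Chemokines of this family act through G protein-coupled receptors on leukocytes. Ccl3, Ccl4 and Ccl5 are inflammatory ligands, and Ccl3 and Ccl5 can act through Ccr1. Ccl2, Ccl7 and Ccl12 attract monocytes through Ccr2. Ccl6 and Ccl9 are ligands of Ccr1 that myeloid cells also make without an inflammatory stimulus. Activated macrophages transcribe many of the inflammatory members through NF-kB, and AU-rich elements in the 3′ UTR mark several of these mRNAs for rapid decay.

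Stretches from 3′ UTRs are shown first, since the members range from none to among the densest of all genes in the AU-rich pentamer ATTTA. Each is a window of 30 bases of the main coding transcript that holds the most ATTTA matches, taken from the M21 transcripts (mm10), written 5′ to 3′ as DNA, with each ATTTA in capitals. Ccl12 and Ccl3 had the densest 3′ UTRs of the 8, and Ccl9 the sparsest of those with a match.
Ccl12 (chr11:82103325-82103354, forward strand): ATTTAaacaaacttgcttaaataatATTTA
Ccl3 (chr11:83648078-83648107, reverse strand): cacttgaaattttATTTAATTTAatcctat
Ccl9 (chr11:83573245-83573274, reverse strand): tgagtccATTTAtacagtggatctcATTTA

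The 3′ UTR of Ccl12 held 5 ATTTA matches in 167 nt, or 29.9 per kb, overlapping matches included. Only 0.0443% of the 9032 coding genes that averaged at least 1 TPM and have an annotated 3′ UTR had as many per kb. By number alone 5 matches were not rare, since 19.4% of these genes held at least as many. Ccl3 followed with 5 matches in 409 nt, a density that 0.642% of genes reached. Ccl9 also held 5 matches, but in 2465 nt, and 34.6% of genes were at least as dense. Ccl4 and Ccl7 held 2 each in 302 and 435 nt, Ccl6 held 4 in 943 nt and Ccl2 held 1 in 275 nt. Ccl5 held none in its 199 nt. Over all these genes the median was 1.27 per kb, and 66.2% had at least 1 match. A match is a description of the sequence and no measure of decay.

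The 250 bases before the RefSeq start (GRCm38.p6, the assembly behind mm10) are shown for Ccl3, whose level differed 1.70-fold between libraries, and for Ccl9, whose level differed least. RefSeq windows of 4 members matched by symbol, those of Ccl3, Ccl6, Ccl9 and Ccl12. Capitals mark matches, on either strand, to the kappaB consensus, to the AP-1 motif TGANTCA and to TATAAA.
Ccl9 (chr11:83578637-83578886, reverse strand): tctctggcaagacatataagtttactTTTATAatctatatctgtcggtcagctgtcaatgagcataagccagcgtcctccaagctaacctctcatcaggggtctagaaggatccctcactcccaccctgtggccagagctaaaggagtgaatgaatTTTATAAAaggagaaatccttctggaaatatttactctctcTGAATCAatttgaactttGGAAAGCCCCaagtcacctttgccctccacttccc
Ccl3 (chr11:83649379-83649628, reverse strand): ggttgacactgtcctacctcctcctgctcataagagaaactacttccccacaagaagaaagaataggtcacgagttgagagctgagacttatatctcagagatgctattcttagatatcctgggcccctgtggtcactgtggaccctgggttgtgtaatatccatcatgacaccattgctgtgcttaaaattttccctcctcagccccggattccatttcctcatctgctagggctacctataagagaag

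In the Ccl9 window the kappaB match began 35 bases before the start and the AP-1 match 53 bases before it. TATAAA matched 3 times in that window, at 224, 94 and 92 bases before the start, the last pair overlapping on opposite strands. The Ccl12 window held 1 match, TATAAA at 31 bases before the start. The windows of Ccl3 and Ccl6 held no match to any of the 3 motifs. Only exact matches were counted, so variant sites are missed, and a match or its absence is no measure of binding. For Ccl3 the M21 gene starts at 83649355, downstream of the window edge at 83649379, so its window would shift with that start. Among all 32851 RefSeq windows of the same length, 7.251% held the kappaB consensus, 6.749% the AP-1 motif and 12.37% TATAAA.

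Levels are given as TPM, a measure of transcripts that is scaled by transcript length and so allows comparison between genes. All 8 members reached 1 TPM in every library, against 16.8% of all gene rows. Most of those rows are not nuclear coding genes. Of 22015 nuclear coding genes, 9165 averaged at least 1 TPM, which is a looser rule. Ccl6 had the highest mean level and Ccl12 the lowest. Together the 8 genes held 0.289%, 0.192% and 0.250% of the TPM of nuclear-encoded protein-coding genes in replicates 1, 2 and 3 (0.243% ± 0.0489, SD, n = 3). Ccl3 with Ccl4 made up 44.4% ± 4.06 of the members' summed TPM, and Ccl6 with Ccl9 another 40.7% ± 4.60 (SD, n = 3).

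Nuclear-encoded coding genes held only 24.98%, 22.0% and 19.6% of the TPM in replicates 1, 2 and 3. On deposited TPM the median coding gene was higher in replicate 1 than in replicate 2 by 0.18 on the log2 scale and higher than in replicate 3 by 0.33, and after rescaling these differences were -0.01 and -0.02. Comparisons between libraries therefore use rescaled TPM, in which the nuclear coding genes of each library sum to the same total. The same choice leaves every ratio between 2 genes of 1 library as it was.

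Among the inflammatory ligands, Ccl3 stood at 194, 100.72 and 112 TPM in replicates 1, 2 and 3 (135 ± 51.1, SD, n = 3). Its partner Ccl4 stood at 158, 71.05 and 103 TPM (111 ± 43.9). For both genes replicate 1 was the high library and replicate 2 the low one. Ccl5, best known as an attractant of T cells, was lower in every library, at 24.2, 11.6 and 14.97 TPM (16.9 ± 6.54). By mean TPM, Ccl3 ranked 212th and Ccl4 275th among 22015 nuclear coding genes, and Ccl5 ranked 2082nd.

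The monocyte attractants were lower than Ccl3 and Ccl4 in every library. Ccl2 stood at 37.6, 20.99 and 28.5 TPM (29.0 ± 8.30, SD, n = 3) and Ccl7 at 35.6, 20.6 and 24.9 TPM (27.0 ± 7.73). These neighbours on the chromosome had nearly the same level in each library. Ccl12, another ligand of Ccr2, stood at 12.95, 6.56 and 6.65 TPM (8.72 ± 3.66), with replicate 1 apart from the other libraries. Its expected counts were 198, 346 and 167, and the lowest has a 95% exact Poisson interval of 143 to 194, which covers counting error only.

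The myeloid members Ccl6 and Ccl9 were high in all libraries and varied least. Ccl6 stood at 171, 124 and 137 TPM (144 ± 24.2, SD, n = 3), rank 203 among coding genes. Ccl9 stood at 88.4, 66.45 and 62.9 TPM (72.6 ± 13.8), rank 454. Both had the largest read support of the family, with expected counts of 9390, 23901 and 11940 for Ccl6 and of 7978, 19159 and 9765 for Ccl9.

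**Figure D1:**
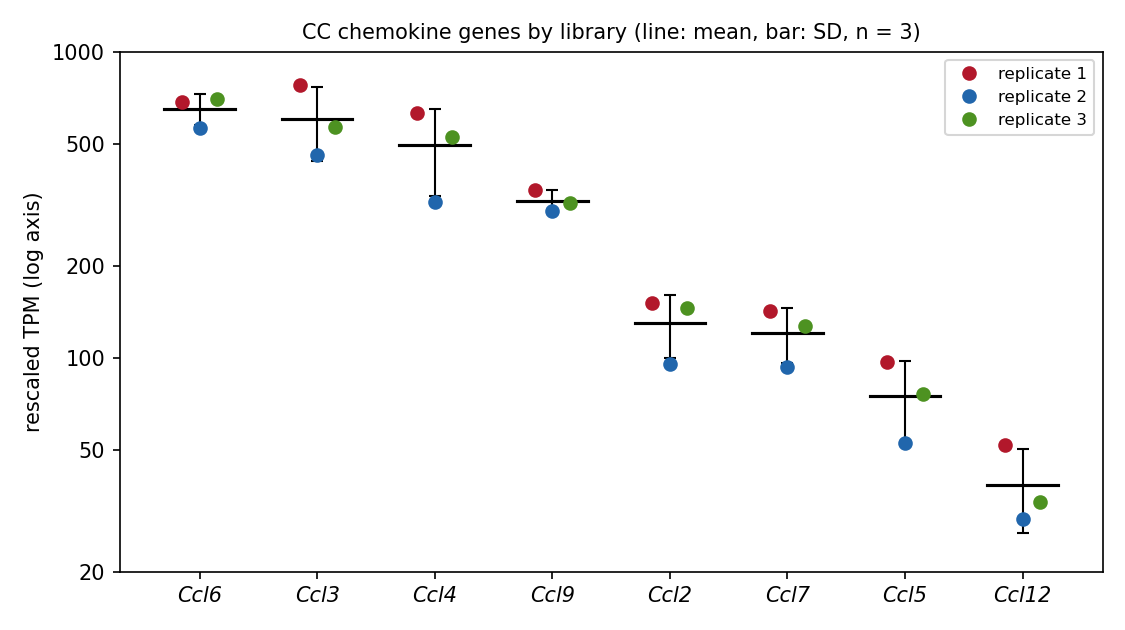
Rescaled TPM (log axis) of the 8 CC chemokine genes, ordered by mean, with 1 point per library, a line at the mean and a bar for the SD (n = 3). Replicate 2 is the lowest library for all 8 genes, and replicate 1 is the highest for 7, the exception being Ccl6.

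In order of mean TPM the members ran Ccl6, Ccl3, Ccl4, Ccl9, Ccl2, Ccl7, Ccl5, Ccl12. Of the 7 neighbouring pairs in this order, 1 lay apart, Ccl9 above Ccl2, meaning that the ranges over the 3 libraries did not overlap and that the order held within each library. On rescaled TPM, Ccl5 and Ccl12 lay apart as well. Ccl6 exceeded Ccl3 in 2 of 3 libraries, so the top of the order was not resolved. The upper 4 genes and the lower 4 were separated by a 2.21-fold to 3.17-fold step from Ccl9 to Ccl2. This split depended on the transcripts counted. Over protein-coding transcripts alone, a setting chosen after seeing the data, that step was 1.49-fold to 1.96-fold. The step from Ccl4 to Ccl9 was then 1.79-fold to 2.88-fold.

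Ratios between members within a library varied less than the levels for some pairs. Ccl4 over Ccl5 gave a log2 ratio of 2.70 ± 0.08 (SD, n = 3), the steadiest of the 28 pairs. Ccl2 over Ccl7 gave 0.10 ± 0.09 and Ccl3 over Ccl12 gave 3.97 ± 0.09. Ccl3 over Ccl4 was 0.30, 0.50 and 0.11 in replicates 1, 2 and 3 (0.30 ± 0.20), so Ccl3 was above Ccl4 in 3 of 3 libraries. Ccl6 over Ccl9 was 0.95, 0.90 and 1.13 (0.99 ± 0.12), about 1.99-fold. The widest spread belonged to Ccl4 over Ccl9, at 0.55 ± 0.40. An exact sign-flip test over 3 libraries cannot pass a threshold of 0.05, and none was run.

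All 8 members lie in the CC chemokine region of chromosome 11 (mm10), in groups separated by 1220.1 kb. The first group spans 270.1 kb and begins with Ccl2 (chr11:82035571-82037453) and Ccl7 (chr11:82045712-82047525), 8.3 kb apart on the forward strand. It goes on with Ccl11, Ccl12 (chr11:82101845-82103400), Ccl8 and Ccl1. The other group spans 138.9 kb and holds Ccl5 (chr11:83525778-83530518), Ccl9 (chr11:83572919-83578636), Ccl6 (chr11:83587882-83593087) and Ccl3 (chr11:83647844-83649355) on the reverse strand, and Ccl4 (chr11:83662584-83664683) on the forward strand. Ccl9 and Ccl6 are 9.2 kb apart and Ccl3 and Ccl4 are 13.2 kb apart.

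Position did not go with level throughout the first group. Ccl11, an attractant of eosinophils that lies between Ccl7 and Ccl12, had 1 expected count in all 3 libraries together. Ccl1, at the far end, also had 1. Ccl8, next to Ccl12, stood at 8.30, 3.84 and 4.44 TPM, close to Ccl12 in level and likewise highest in replicate 1. In the second group all 5 chemokine genes were well above 1 TPM. E230016K23Rik, an annotated non-coding gene that overlaps Ccl6 on the opposite strand, had 14 expected counts in all against 45231 for Ccl6. No source used here says whether counting took the strand into account, and without it reads of both genes could not be told apart.

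**Figure D2:**
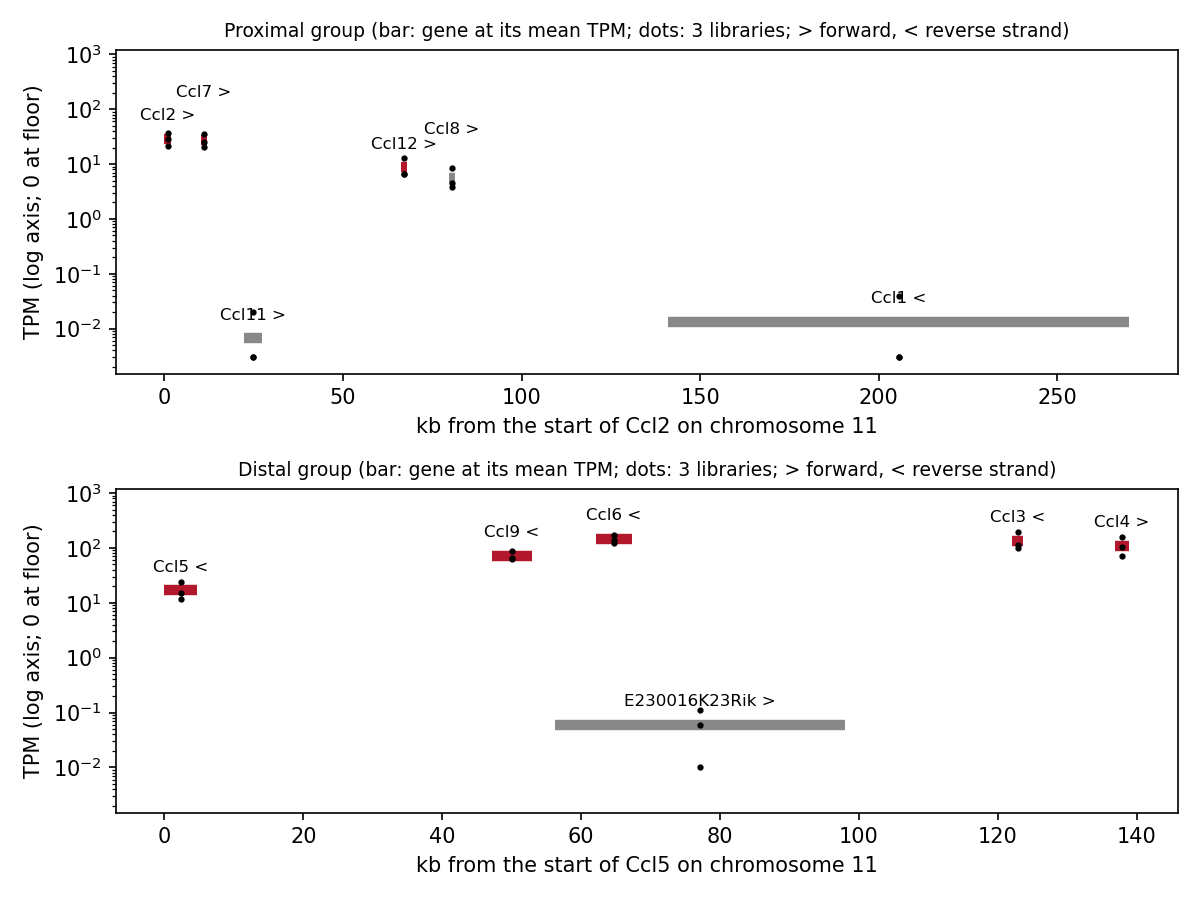
Mean TPM (log axis) of the genes in the 2 chemokine groups of chromosome 11, against distance in kb from the first gene of each group, with members as red bars, other genes as grey bars and dots for the 3 libraries. Ccl11, between Ccl7 and Ccl12, and Ccl1, at the far end, sit near the floor, while all 5 chemokine genes of the lower panel average at least 16.9 TPM.

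On rescaled TPM the members differed more between libraries than most genes. Their highest library exceeded their lowest by a median of 1.64-fold, against 1.14-fold over the 9165 nuclear coding genes that averaged at least 1 TPM. No member reached 2-fold, and 1.66% of those genes did. At 1.5-fold the count was 6 of 8 members, against 6.25% of genes. The 6 were Ccl4 (1.96-fold), Ccl5 (1.84), Ccl12 (1.74), Ccl3 (1.70), Ccl2 (1.58) and Ccl7 (1.52), while Ccl6 (1.24) and Ccl9 (1.17) stayed below. Replicates 1 and 2 set this count: it was 1 of 8 without replicate 2 (4.24% of genes), 2 of 8 without replicate 1 (2.30% of genes) and 6 of 8 without replicate 3 (3.10% of genes).

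The members also shared the order of the libraries. Rescaled TPM was highest in replicate 1 for 7 of 8, where 30.4% of the 9165 genes were highest, and lowest in replicate 2 for 8 of 8, where 31.9% of genes were lowest. Ccl6 was the exception at the top, with 685, 564 and 700 rescaled TPM in replicates 1, 2 and 3. On the deposited TPM all 8 were highest in replicate 1 and 7 were lowest in replicate 2, Ccl9 being lowest in replicate 3. On the TPM of the second transcript table, where the median coding gene was lower in replicate 3 than in replicate 2 by a log2 difference of -0.38, all 8 were highest in replicate 1 but only 4 were lowest in replicate 2. After rescaling that table, the counts were again 7 and 8. The members are neighbours of 1 gene family measured in the same libraries, and these counts describe them without a test.

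Ccl4 had rescaled TPM of 632, 323 and 526 in replicates 1, 2 and 3, with replicate 1 1.20-fold above replicate 3. Ccl2 was nearly level between these libraries, at 150, 95.4 and 145. Ccl12, at 51.9, 29.8 and 33.8, and Ccl3, at 777, 458 and 568, had replicate 3 nearer to replicate 2. Ccl9 held 354, 302 and 320. Thus replicate 2 was lowest for all 8 members on rescaled TPM, while the distance of replicate 1 from replicate 3 ran from 0.98-fold in Ccl6 to 1.53-fold in Ccl12.

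The coefficient of variation beyond counting error was estimated with edgeR from the expected counts of all genes. It was 31.8% for Ccl4, 27.3% for Ccl5, 26.1% for Ccl12, 25.5% for Ccl3, 23.7% for Ccl2 and 20.1% for Ccl7. These 6 of 8 members lay above the trend that edgeR fitted for genes of like abundance. Of the 9159 nuclear coding genes that averaged at least 1 TPM and passed the low-count filter, 17.7% did. Ccl9 at 10.1% and Ccl6 at 7.82% lay below trend values of 10.9% and 11.1%. The median over the members was 24.6%, and over all genes it was 5.32%.

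Genes of the early NF-kB response, which macrophages induce quickly after Tlr4 is engaged, were high in the same library as most members, by a larger fold. Of 18 listed genes, 18 passed the limit of 1 TPM in each library. All 18 had their highest rescaled TPM in replicate 1, against 30.4% of the 9165 nuclear coding genes. They exceeded replicate 2 by a median of 2.57-fold in replicate 1, where the members exceeded it by 1.64-fold. The list was chosen with earlier results of these data known and is no independent evidence. Without replicate 1, 11 of the 18 were highest in replicate 3, where Ccl3 was then highest too. The median nuclear coding gene was 1.01-fold as high in replicate 3 as in replicate 2, so this count is not read as a shared pattern.

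Tnf, a cytokine of the acute response, had rescaled TPM of 662, 159 and 229 in replicates 1, 2 and 3. Cxcl10, a chemokine of another subfamily, spread the most of the list, at 132.5, 37.5 and 23.5. Nfkbia, the inhibitor that NF-kB induces against itself, stood at 730, 336 and 261. Cxcl1 and Cxcl2, attractants of neutrophils, were at 74.5, 28.3 and 16.0 and at 267, 105.3 and 118. Il1b stood at 140.5, 41.2 and 43.9, Il1a at 38.6, 13.4 and 28.35, and Tnfsf9 at 43.4, 13.1 and 9.21. Replicate 1 was the highest library for each of these genes, and Il1a alone had replicate 3 nearer to it than to replicate 2.

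Other listed genes spread over a similar or a smaller range. The feedback regulators Nfkbiz, Tnfaip3, Dusp2 and Nfkbie differed 3.98-fold, 2.60-fold, 2.71-fold and 1.599-fold between their highest and lowest libraries. Ier3 differed 1.73-fold, close to Ccl3, and Icam1, an adhesion molecule, 1.77-fold. Zfp36, whose product binds AU-rich elements and speeds the decay of their mRNAs, differed 1.35-fold and was the most abundant of the list at 228 ± 50.1 TPM (SD, n = 3). Pim1, Dusp1 and Sod2 differed 1.40-fold, 1.29-fold and 1.19-fold.

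**Figure D3:**
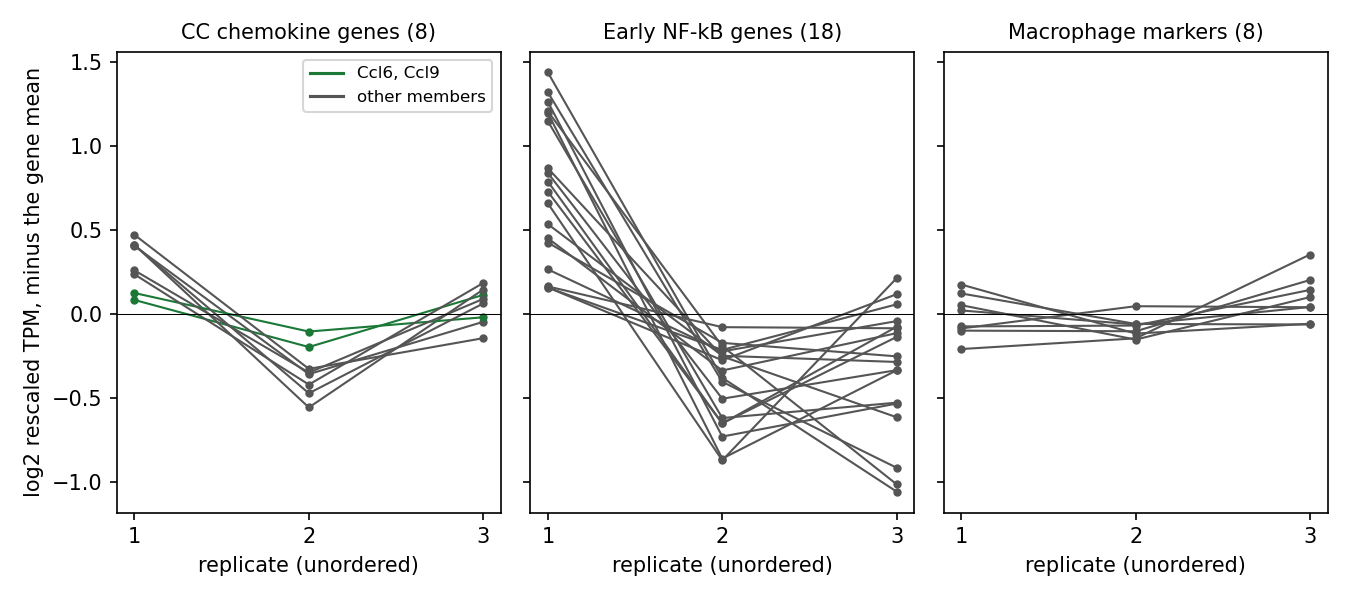
Log2 rescaled TPM of each gene minus its own mean over the 3 libraries, by replicate, for the 8 CC chemokine genes, 18 early NF-kB genes and 8 macrophage markers; lines join the values of 1 gene and replicates have no order. The members are lowest in replicate 2, Ccl6 and Ccl9 (green) by the least, all 18 early NF-kB genes are highest in replicate 1, and the macrophage markers stay close to their means.

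Macrophage markers did not share this pattern. All 8 listed markers, among them Lyz2, Cd68, Csf1r, Adgre1, Fcgr1, Mertk and Itgam, were detected in every library, and 2 of 8 were highest in replicate 1. Their summed rescaled TPM was 27876, 23691 and 24672, most of it from Lyz2, which was highest in replicate 1. Defining markers of T and NK cells, which are strong sources of Ccl5, were near 0: 0 of 8 reached 1 TPM in all libraries, 3 had no count in any, and the summed level was 0.34, 0.08 and 0.04 TPM. Of 9 neutrophil markers 3 were detected (S100a8, S100a9 and Ngp), and the summed level of the list, 18.9, 27.3 and 27.8 TPM, was lowest in replicate 1. Ly6g, which defines neutrophils, had 1 count in replicate 3 and none elsewhere. Of 3 monocyte markers 2 were detected, with a summed level of 5.99, 6.56 and 4.58 TPM. No marker of B cells, mast cells and basophils, eosinophils, dendritic cells or fibroblasts was detected by this rule. The part of any of these cells in the members' levels was not tested.

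Nuclear RNA varied in another order. Malat1, a long non-coding RNA that is kept in the nucleus, stood at 359, 248 and 763 TPM in replicates 1, 2 and 3, and Neat1 at 31.7, 23.6 and 83.9 TPM. Replicate 3 was thus the highest library for nuclear RNA, while replicate 1 was highest for 7 members on rescaled TPM. Total expected counts were 27392626, 81597761 and 37176950, so the deepest library, replicate 2, was the lowest for all members on rescaled TPM. The part of depth and of nuclear RNA in the differences was not tested.

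For each member the 3 genes with the most similar pattern were taken by Euclidean distance of centred log2 values over the 3 libraries, among 5467 coding genes that averaged at least 5 TPM. With 3 libraries a close match is common, and the lists are a description. Ccl3 was nearest to C1qa (distance 0.038), Ier3 and Tnfsf13, and Ccl12 to Pla2g7 (0.024), Ier3 and Tnfsf13. Ccl4 was nearest to Tnip3 (0.081), Gdf3 and Gdf15, and Ccl5 to C1qa (0.129), Gdf15 and Ccl8. Ccl2 was nearest to Bcl2a1b (0.046), Id2 and Jun, and Ccl7 to Cd302 (0.028), Morc3 and Jun.

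Ccl6 and Ccl9 had many genes close to them. For Ccl6, Tmx1 (0.004), Tbc1d23 and Ptp4a1 were nearest, and 208 genes lay within a distance of 0.1. For Ccl9, C1qc (0.001), Azi2 and Vapa were nearest, with 529 genes within that distance. The same distance held 5 genes around Ccl3, 3 around Ccl2, 1 around Ccl4 and none around Ccl5. Among the members themselves Ccl4 and Ccl5 were each other's nearest, as were Ccl2 and Ccl7, Ccl3 and Ccl12, and Ccl6 and Ccl9. Genes outside the family often lay closer than the nearest member. They numbered 813 for Ccl6 and 1773 for Ccl9, and from 0 for Ccl5 to 14 for Ccl7 among the rest.

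Of the members, 3 have 1 annotated transcript (Ccl3, Ccl4 and Ccl7) and the other 5 have more. Transcript shares were read from both transcript tables of each library, which estimate transcripts of the same reads in different ways. For Ccl2, Ccl5 and Ccl12 the coding transcript held 95.7% ± 2.99, 99.5% ± 0.43 and 96.1% ± 1.47 of the gene's TPM (SD, n = 3) in the first table. In the second table they held 94.6%, 99.1% and 92.2%.

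Ccl6 and Ccl9 differed from the rest and also between the tables. The coding transcript of Ccl6 held 85.0% ± 5.40 of the gene's TPM in the first table and 59.1% ± 1.41 in the second (SD, n = 3). The remainder was almost entirely Ccl6-202, annotated as a retained-intron transcript, at 18.3%, 8.31% and 16.9% in the first table and 40.8%, 39.2% and 41.6% in the second. Of its 776 nt, 705 lie in exons of the coding transcript and 71 in introns, so few bases tell the 2 apart. Replicate 2 was the low library in the first table, and in the second the libraries were nearly equal.

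Ccl9-202, a short annotated transcript without a coding frame, held 36.5% ± 4.54 of Ccl9 TPM in the first table and 55.6% ± 2.93 in the second (SD, n = 3). It is 398 nt long and the coding transcript of Ccl9 is 3006 nt. Because TPM is per length, this share of TPM corresponds to only 3.59% ± 0.67 of the gene's expected counts in the first table and 7.54% ± 0.34 in the second. Of its bases 359 lie in exons of the coding transcript and 39 in introns. Over protein-coding transcripts alone, Ccl9 stood at 54.8, 39.8 and 43.15 TPM (45.9 ± 7.88) and Ccl6 at 140, 113 and 113 TPM (122 ± 15.2), which put Ccl3 first by mean, although it exceeded Ccl6 in only 1 of 3 libraries, and set Ccl4 apart from Ccl9.

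**Figure D4:**
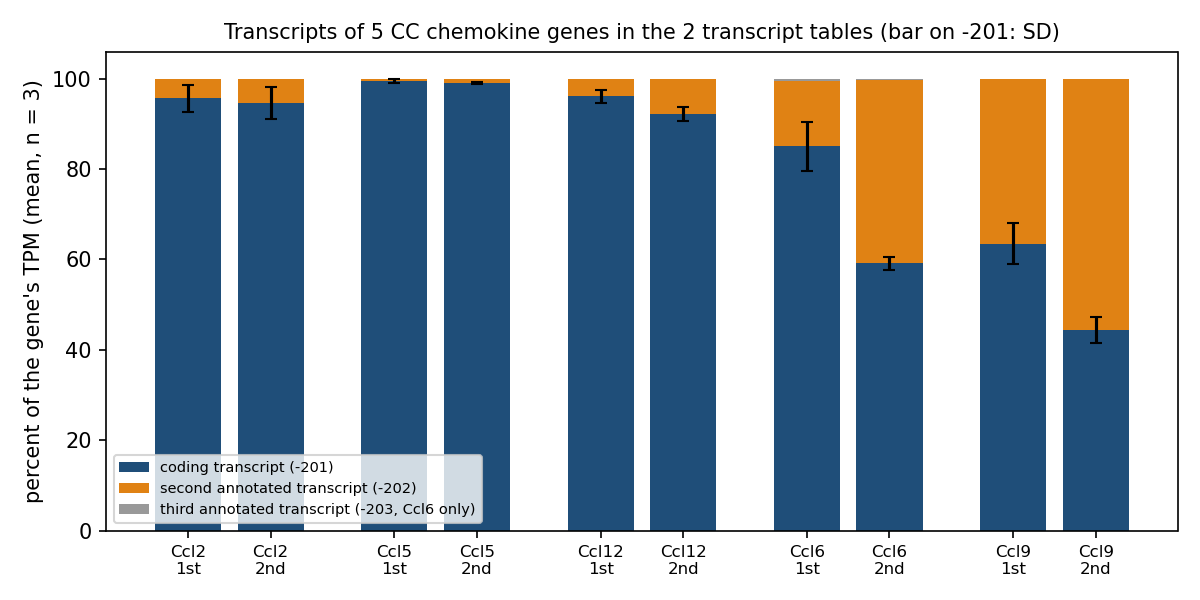
Mean share of each gene's TPM (percent, n = 3) held by its annotated transcripts, for the 5 members with more than 1 transcript, in the first and second transcript tables, with the SD drawn on the coding transcript. The coding share is 85.0% and 59.1% for Ccl6 and 63.5% and 44.4% for Ccl9 in the first and second tables, while the other 3 genes stay at 92.2% or higher.

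Retained-intron transcripts of Ccl2 held 2.08%, 3.19% and 7.71% of its TPM in replicates 1, 2 and 3, and replicate 3 was also the highest for Malat1. The median over 5780 coding genes with such annotated transcripts was 1.40%, 1.32% and 2.90% in the same libraries. Averaged over libraries, the Ccl6 share lay above that of 87.4% of these genes and the Ccl2 share above that of 67.7%. In the second table the Ccl6 share lay above that of 96.9% of 4847 genes. Ccl5 held 0.45% ± 0.43 (SD, n = 3).

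Most other CC chemokine genes lay below the limit of detection used. Of 16, 2 reached 1 TPM in all libraries, against 16.8% of all gene rows. Those rows include non-coding genes, and 9165 of 22015 nuclear coding genes averaged at least 1 TPM, a larger share by a looser rule. The 2 detected genes were Ccl8 and Ccl25, the latter at 1.57, 1.25 and 1.58 TPM. Ccl25 is best known from the thymus and the gut. Another 8 had no count in any library, and a count of 0 allows up to 3 counts, or 0.110, 0.0368 and 0.0808 CPM (counts scaled by depth) in replicates 1, 2 and 3, for counting error only. Ccl22 and Ccl24, which macrophages make in other states of activation, averaged 0.513 and 0.350 TPM.

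Of 16 listed genes of CC chemokine receptors and related atypical receptors, 4 reached 1 TPM in all libraries, against 16.8% of all gene rows. By the looser rule of a mean of at least 1 TPM, 9165 of 22015 nuclear coding genes passed, a larger share than 4 of 16. Of the 4 receptor genes, 3 are described. Ccrl2, an atypical receptor that macrophages induce on activation, stood at 35.55, 19.2 and 11.65 TPM (22.1 ± 12.2, SD, n = 3), with replicate 1 high and replicate 3 low. Ccr1, a receptor for Ccl3, Ccl5, Ccl6 and Ccl9, stood at 11.2, 7.60 and 9.56 TPM (9.46 ± 1.82). Ccr2, the receptor of Ccl2, Ccl7 and Ccl12, stood at 3.55, 3.33 and 2.90 TPM (3.26 ± 0.331), nearly level between libraries. Expected counts of Ccr2 were not whole, so some of its reads were split with other genes, whereas those of all 8 members were exactly whole in every library, as they were for 75.1% of 14831 nuclear coding genes with counts. Ccr4, Ccr8, Ackr2 and Ackr3 had no count. On the rescaled scale the levels of Ccr1 spread 1.41-fold and those of Ccrl2 2.40-fold.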

How the data were processed

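The authors deposited a gene table and 2 transcript tables for each of 3 libraries. Notes deposited beside the tables state that reads aligned to the transcriptome gave the gene table and 1 transcript table, called the first here, and that the second was made directly from the reads without that step, on mm10 with GENCODE M21. RSEM and kallisto use such column names, with tools, versions and strand setting not given in the sources used here. Per the file headers, the deposited expected counts are estimates that need not be whole, and reads shared by similar genes are split between them. The deposited TPM values are scaled by the authors to a fixed sum per library, so abundant short RNAs lower all mRNAs. The deposited FPKM values and the percent of each gene held by a transcript are also the authors' own. Rows that name no gene held 0.402%, 0.108% and 0.122% of the expected counts in replicates 1, 2 and 3 and were left out.

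Rescaled TPM divides TPM by the total of nuclear-encoded protein-coding genes of the library. Expected counts of gene rows were rounded, kept by filterByExpr (minimum count 10), scaled by TMM (factors 1.04, 1.01 and 0.959) and given to edgeR 4.0.16 (R 4.3.3, estimateDisp, intercept only). The procedure was also run on simulated counts, whose spread was set wider than the median of these genes, and no result here rests on that run. DESeq2 1.42.0 was an alternative, as were the second transcript table, FPKM, posterior mean TPM, other limits and folds, and leaving out each library. Pattern distances used log2(rescaled TPM + 1). Counts of any pair of libraries differed beyond sampling noise (chi-square per degree of freedom of 41.3 to 58.5), so each was counted as a sample; this does not tell separate cultures from technical repeats. The genes named are the members, the detected genes of the other chemokine, receptor and early NF-kB lists, and the 3 nearest patterns of each member; a few undetected genes are named as examples, chosen after their values were seen. Some genes that this rule or the marker lists would name are not reported here. The members and all lists were chosen with earlier results of these data known.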

Additional observations from a re-analysis of the deposited data

How the results depend on the processing

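All 8 members stayed at 1 TPM or more under every limit and table tried. The number of other CC chemokine genes at the limit was 2, and it was 1 in the second transcript table and 0 at a limit of 5 TPM. The receptor count of 4 was 2 at that limit. With the limit of 1 set on rescaled TPM, these counts were 3 and 6. The number of members whose libraries differed at least 2-fold was 0 on rescaled TPM and 2 on TPM as deposited, and 6 when the fold was set to 1.5. The Ccl6 over Ccl9 log2 ratio of 0.99 was 0.79 in the second transcript table. Neighbours in the order of levels that lay apart numbered 1 on deposited TPM, and 2 on rescaled TPM, 2 in the second transcript table after rescaling and 2 over protein-coding transcripts alone; these last settings, and levels over coding transcripts alone, were chosen after seeing the data. When 1 library was left out, 11 to 18 early NF-kB genes were highest in the library where Ccl3 was highest. Members above the edgeR trend numbered 6, with DESeq2 7, and 4 to 7 when 1 library was left out. Ccl9 was 1.33 times higher and Ccl6 1.16 times higher in the second table than in the gene table after rescaling, the other members 1.00 to 1.07 times. By mean, Ccl6 stood above Ccl3 in the gene table and below it over coding transcripts alone, and unscaled TPM of the second table put 4 of 8 members lowest in replicate 2, against 8 on rescaled TPM. The cause of these shifts was not tested. No paired analysis was possible because there is 1 group. Depth limits Ccl12 most, with 167 counts in replicate 3.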

Other observations

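Which pair of members held more of the family's TPM changed with the library. Ccl3 with Ccl4 held 48.8%, 40.7% and 43.8% of the members' summed TPM in replicates 1, 2 and 3, and Ccl6 with Ccl9 held 36.0%, 45.2% and 40.9%. The second pair was thus the larger in replicate 2 alone in the gene table. This depended on the table, by alternatives added after seeing the data. In the second transcript table Ccl3 with Ccl4 held 45.6%, 37.4% and 40.4% and Ccl6 with Ccl9 40.0%, 49.5% and 45.0%, the latter being larger in replicates 2 and 3. Over protein-coding transcripts alone Ccl3 with Ccl4 were larger in all 3 libraries, at 53.7%, 44.8% and 48.4% against 29.7%, 39.9% and 35.2%.

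The nearest patterns set subunits of 1 protein apart. C1qa and C1qc encode chains of the complement component C1q, which macrophages make. C1qa, the nearest pattern to Ccl3 and to Ccl5, had rescaled TPM of 316, 188 and 239 in replicates 1, 2 and 3. C1qc, the nearest pattern to Ccl9, had 2451, 2091 and 2220, a much smaller relative difference between the same libraries. No test of this difference was made, and it was chosen after its values were seen.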
